A study of Mus musculus with 35 samples.

Results

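A pair of engineered mouse neuroblastoma lines were compared in the absence of doxycycline, when neither was induced to make its inserted cDNA. Both descend from Neuro-2a (N2a) cells that carry a Flp-In site, at which one construct can be integrated, and rtTA, a transcriptional activator that needs doxycycline. The mEx5 line carries a FLAG-tagged Chtop cDNA without exon 5, and the pEx5 line carries the same kind of cDNA with exon 5. The rule took every library of poly(A) RNA made without doxycycline from total lysate or from nuclei: 16 of the 35 libraries in the series, 8 of each line. Within each line, 2 cultures received a non-targeting control siRNA pool and 2 received an siRNA against Chtop, and each of these 8 cultures gave 1 total and 1 nuclear library. The medium was changed 24 h after transfection and cells were harvested at 72 h. Chtop is a component of the TREX complex, which couples transcription to export of mRNA. There is 1 line for each cDNA, and the labels do not say if it was grown from 1 cell. Line, cDNA, integration, clonal history and passage therefore cannot be told apart. The p-values of the main fit measure the spread between libraries of these particular lines, with the total and nuclear library of a culture counted as separate.

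Neuroblastoma cells descend from the sympathetic branch of the neural crest. Their noradrenergic identity is held by a circuit of transcription factors that includes HAND2, GATA3, ISL1 and TBX2, which activate one another as well as neuronal genes. Neuroblastoma cultures can also hold a mesenchymal state, known for extracellular matrix, actin-based contractile proteins and the neural crest genes of migrating cells. PYY and PPY are peptides of the neuropeptide Y family, best known from endocrine cells of gut and pancreas, and their genes lie side by side in the mouse genome.

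The total counts of total-lysate libraries ran from 20652832 to 32380226 in mEx5 and from 23040912 to 36102129 in pEx5, and those of nuclear libraries from 19050900 to 28705620 and from 14420143 to 22012187. The nuclear libraries of pEx5 reached the lowest totals, and the ranges overlap. Transcripts of the mitochondrial genome took 3.17 to 4.84% of counts in total lysate of mEx5 and 2.45 to 4.61% in pEx5, and 0.817 to 1.59% and 0.628 to 1.53% in nuclei. The part of depth and of mitochondrial share in the differences below was not tested. The label of neuroblastoma was checked against marker genes in RPKM, reads scaled to transcript length and library depth. Hand2 was between 114.3 and 243.0 RPKM, and Phox2a between 65.1 and 291.4, over the 16 libraries. Neuronal Tubb3 was at 187.4 or more in every library. Th and Dbh, enzymes of noradrenaline synthesis, were low, at no more than 0.94 and 2.77 RPKM. Of the markers of other cell types, Ins1, Ins2, Gcg, Iapp, Pdx1, Neurod1, Neurog3, Cck and Gip of endocrine cells were listed at 0 in all 16 libraries, and Col1a2 and Col3a1 of fibroblasts did not exceed 0.01. Other endocrine markers were present: secretin (Sct) was between 9.21 and 99.0 RPKM, somatostatin (Sst) reached 0.35, and Pyy and Ppy are described below.

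After fraction, siRNA and replicate number were fitted, the leading principal component of the remaining variation held 31.6% of it and separated the lines in all 16 libraries. Of 9238 genes tested by counts, 904 (9.79%) were higher in pEx5 and 813 (8.8%) were lower at an adjusted p under 0.05, together 18.6% of the genes tested. Most of these differences were small. The median called gene differed 1.17-fold, 40 genes (0.433%) were at least 1.5-fold higher and 17 (0.184%) at least 1.5-fold lower, and 2 (0.0216%) and 3 (0.0325%) reached 2-fold. For scale, the Chtop siRNA term of the same fit called 62.2% of the genes, 146 of them at least 2-fold. Of the 1717 genes called between lines, 1581 had the same sign in each of the 4 combinations of fraction and siRNA, and in 340 the libraries of the lines did not overlap in any combination. Of all 9238 genes, 3294 (35.7%) had 1 sign in the 4 combinations and 362 (3.92%) did not overlap, counts that include the called genes. Without the replicate number in the fit, 374 genes were higher and 214 lower. Leaving out both libraries of the second control culture of mEx5 gave 481 and 339, and leaving out those of the second Chtop siRNA culture of pEx5 gave 541 and 372.

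**Figure D1:**
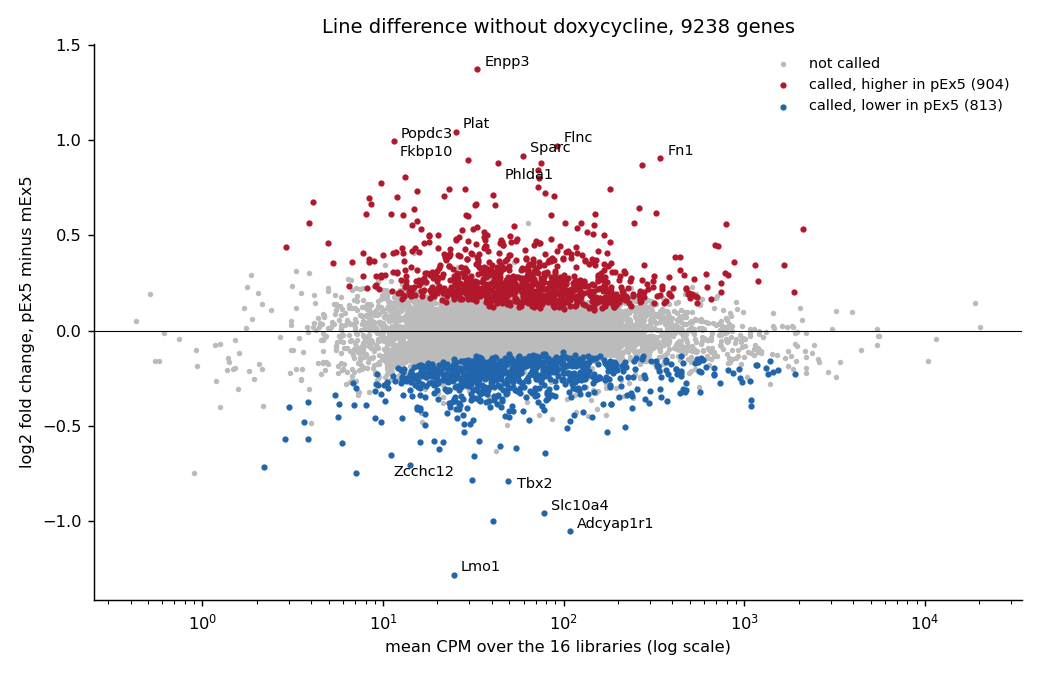
Log2 fold change of pEx5 over mEx5 (vertical) against mean CPM over the 16 libraries (horizontal, log scale) for the 9238 genes tested. Red points are the 904 genes called higher in pEx5 and blue points the 813 called lower; Enpp3 and Lmo1 lie farthest from 0.

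Lmo1, a LIM-only transcriptional cofactor studied as a neuroblastoma oncogene, was the most reduced of the genes named from the count table. It had a lowest, median and highest value of 17.3, 29.1 and 60.2 CPM (counts scaled to library depth) in the 8 mEx5 libraries and 7.77, 12.3 and 27.1 CPM in the 8 pEx5 libraries. These ranges overlap, but within each of the 4 combinations the lines did not overlap. Its log2 difference was -1.28 (SE 0.09, adjusted p = 1.21e-08). Tbx2, a T-box factor and member of the noradrenergic circuit, was at 40.5 and 47.1 CPM in total lysate of control mEx5 cultures and at 28.4 and 24.99 CPM in those of pEx5. With Chtop siRNA, Tbx2 in total lysate was at 56.3 and 67.9 CPM in mEx5 and 40.3 and 34.1 CPM in pEx5. The nuclear values were 46.5 and 68.4 CPM against 31.7 and 36.5 CPM with control siRNA, and 76.8 and 96.2 CPM against 43.8 and 46.7 CPM with Chtop siRNA. Every pEx5 library was below every mEx5 library of the same fraction and siRNA, and the log2 difference was -0.79 (SE 0.07, adjusted p = 3.97e-07).

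Adcyap1r1, the receptor of the neuropeptide PACAP, had medians of 126.4 and 66.9 CPM (log2 -1.05, SE 0.07, adjusted p = 4.80e-09). Slc10a4, a carrier-like protein of synaptic vesicles in monoaminergic and cholinergic neurons, had medians of 92.8 and 46.9 CPM (log2 -0.96, SE 0.07). Neither gene overlapped between lines within any combination of fraction and siRNA. Zcchc12 (-0.78), the inhibitor of bHLH factors Id2 (-0.75), Galt of galactose metabolism (-0.71), Klhdc8b (-0.66), the muscle-type cytochrome oxidase subunit Cox6a2 (-0.65), the synaptic vesicle protein Syn2 (-0.64), Dixdc1 (-0.62), Lrrn3 (-0.62), the aldehyde dehydrogenase Aldh1b1 (-0.60) and the presynaptic scaffold Ppfia2 (-0.58) followed on the log2 scale. Id2 differed in the fit although its libraries overlapped within each combination.

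Of 14 noradrenergic genes in the count table, 9 were lower in pEx5 and none was higher, where 8.8% of all genes were lower and 9.79% higher, with a median log2 difference of -0.27 where the median of all genes was -0.01. Lmo1, Tbx2 and Six3 (-0.36) were among the lowest. The 3 members with a value above 0, none of them called, were Gata2 (0.005), the vesicular monoamine transporter Slc18a2 (0.04) and the receptor kinase Alk (0.14). With control siRNA alone 5 members were lower, and Alk was higher (0.24, adjusted p = 0.00849). With Chtop siRNA alone 10 were lower and none higher. In these bulk samples, fewer cells of a kind and less RNA per cell cannot be told apart. In the scaling alternatives tried, 8 or 9 of the 14 were lower, and none was higher. The list was written with earlier results of these data known. Among 8 members measured only in the RPKM table, 4 were lower and none was higher, where 4.96% of the genes tested in RPKM were lower: Isl1 by -1.51 (SE 0.13, adjusted p = 4.18e-06), Gata3 by -0.94, Mycn by -0.70 and Dbh by -0.67 on the log2 scale. Isl1, a LIM-homeodomain factor, ran from 3.75 to 12.4 RPKM in mEx5 and from 1.4 to 5.05 in pEx5. Gata3 did not overlap at all, at 3.56 to 4.76 RPKM against 1.85 to 2.36.

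**Figure D2:**
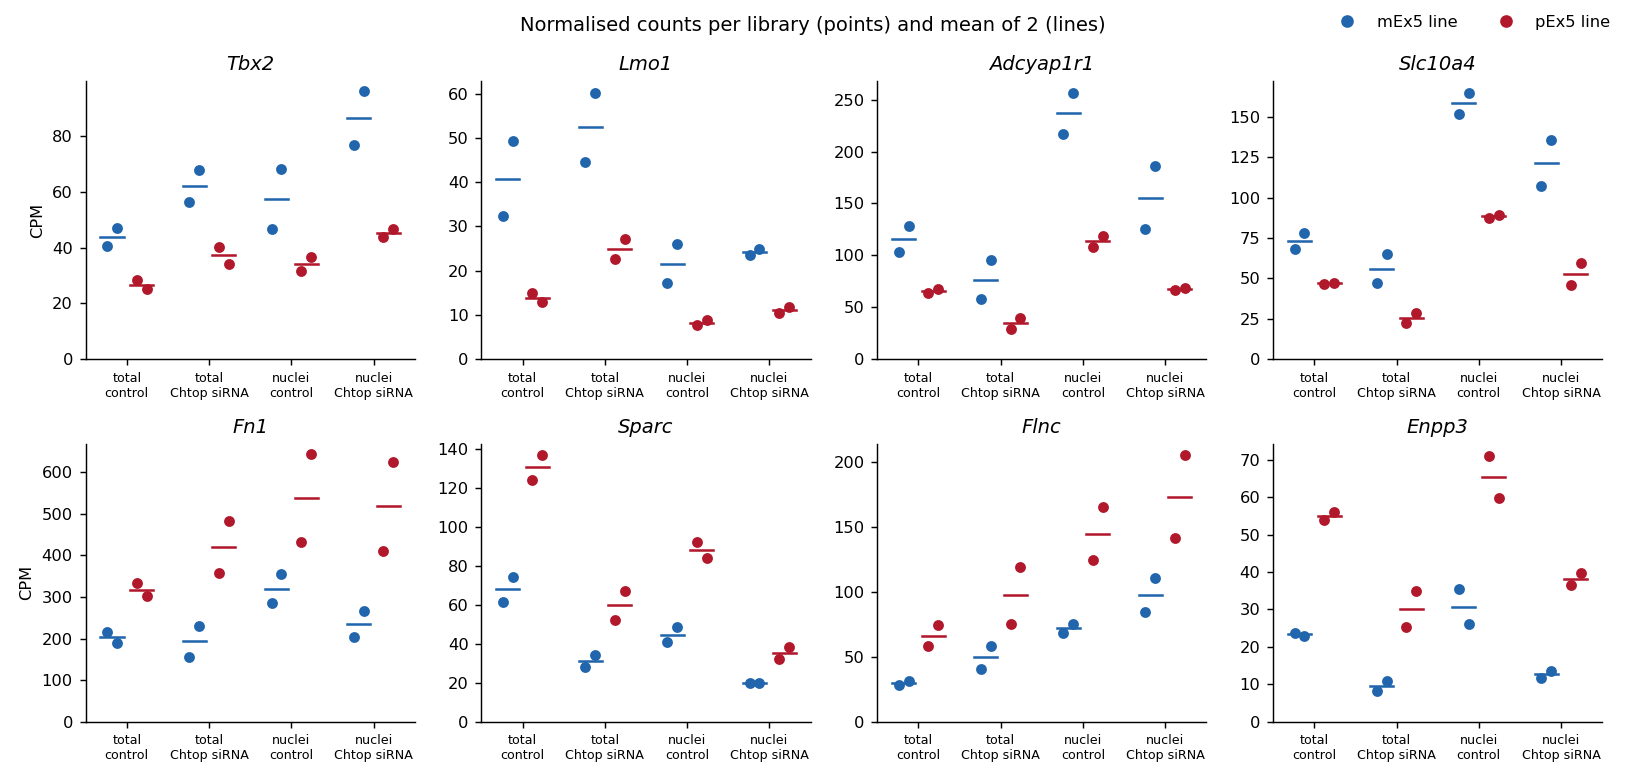
CPM (vertical, from 0) of 8 genes in each library, in the 4 combinations of fraction and siRNA; blue, mEx5; red, pEx5; lines are means of 2 cultures. Tbx2, Lmo1, Adcyap1r1 and Slc10a4 are lower and Fn1, Sparc, Flnc and Enpp3 higher in pEx5 in every combination, without overlap.

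Enpp3, a cell-surface nucleotide pyrophosphatase, was the most raised of the genes named from the count table. It had a lowest, median and highest value of 8.13, 18.2 and 35.6 CPM in mEx5 and 25.4, 46.8 and 71.2 CPM in pEx5, and did not overlap within any combination (log2 1.37, SE 0.09, adjusted p = 4.80e-09). Plat, tissue plasminogen activator, ran from 8.86 to 25.2 CPM and from 17.3 to 51.0 CPM (log2 1.04, SE 0.08). Sparc, a matrix glycoprotein that binds collagen, had medians of 37.4 and 75.4 CPM (log2 0.92, SE 0.05, adjusted p = 1.63e-09). Fn1, fibronectin, ran from 156.5 to 355.8 CPM in mEx5 and from 301.8 to 644.1 CPM in pEx5 (log2 0.90, SE 0.10, adjusted p = 1.03e-05). The actin cross-linker Flnc had medians of 63.5 and 121.8 CPM (log2 0.97, SE 0.06). In each of these genes the pEx5 libraries lay above the mEx5 libraries of the same fraction and siRNA.

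The remaining genes of the 15 highest were Popdc3 (log2 0.99), the collagen chaperone Fkbp10 (0.90), Phlda1 (0.88), the cyclooxygenase Ptgs1 (0.88), the granule protein secretogranin II, Scg2 (0.87), the collagen-binding Aebp1 (0.84), the coat protein Copz2 (0.81), the actin-oxidising enzyme Mical2 (0.80), the peptide adrenomedullin, Adm (0.78), and Ctla2a (0.76). Ctla2a has a close copy, Ctla2b, between which assignment of reads is uncertain. Adm overlapped between lines in 3 of the 4 combinations. Outside the count table, alpha smooth muscle actin Acta2 was at 0.58 to 11.8 RPKM in mEx5 and 3.32 to 33.6 in pEx5 (log2 1.99, SE 0.14, adjusted p = 1.11e-06). In total lysate of control cultures it was at 1.48 and 2.01 RPKM in mEx5 and at 9.19 and 10.8 in pEx5, which do not overlap. Cavin1, a coat protein of caveolae, had medians of 1.26 and 4.99 RPKM (log2 1.78, SE 0.11). Il6, the cytokine interleukin 6, had medians of 1.96 and 5.84 RPKM (log2 1.58, SE 0.15). Anxa1 (log2 2.31, SE 0.30) was at 0 to 0.52 RPKM in mEx5 and 0.39 to 1.55 in pEx5, levels near the lower end of the table. Megf10 (1.85), the focal adhesion protein Fblim1 (1.48) and the heparan sulfate sulfotransferase Hs3st2 (1.42) were also among the 8 highest.

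Of 11 collagens, laminins and integrins, 8 were higher and none lower, where 9.79% of all genes were higher, and the median log2 difference was 0.28. Col22a1 (0.74), the basement membrane collagens Col4a2 (0.56) and Col4a1 (0.39), and the integrin Itgb5 (0.35) differed most. With doxycycline 3 of the 11 were higher and none lower (median 0.15), where 4.39% of all genes were higher. Of 26 further members tested in RPKM, 12 were higher and none lower, where 7.57% of all genes tested in RPKM were higher, with Itga3 (1.19), Itgb3 (1.10), the laminin Lama4 (1.05) and Itga5 (1.02) leading. All these genes are low in RPKM, the highest of the 4 being Lama4 with medians of 4.46 and 8.98. Of 7 S100 and annexin genes, which encode calcium-binding proteins, 6 were higher, with a median of 0.39: Anxa4 (0.70), S100a6 (0.61), Anxa2 (0.57) and Anxa5 (0.39) led, while S100a4, tested in RPKM, was lower (-0.62, adjusted p = 0.0373), a call lost in 9 of 20 alternatives. With doxycycline 2 of the 7 S100 and annexin genes were higher and none lower (median 0.24). Mesenchymal and neural crest genes were mixed. Of 9, 5 were higher, among them Fn1 and the intermediate filament gene Nes (0.56), and 2 were lower, Id2 and Id3 (-0.58), against 9.79% higher and 8.8% lower of all genes. Without the replicate number 5 were higher and none lower. In RPKM the Hippo-pathway coactivator Wwtr1 (1.04), Bhlhe41 (1.01) and the receptor Notch2 (0.58) were higher. The fibroblast marker genes Col1a1, Col1a2, Col3a1 and Dcn were all at 0.16 RPKM or below in both lines. Pdgfrb was at 0.15 to 0.86 RPKM in mEx5 and 0.32 to 1.10 in pEx5.

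**Figure D3:**
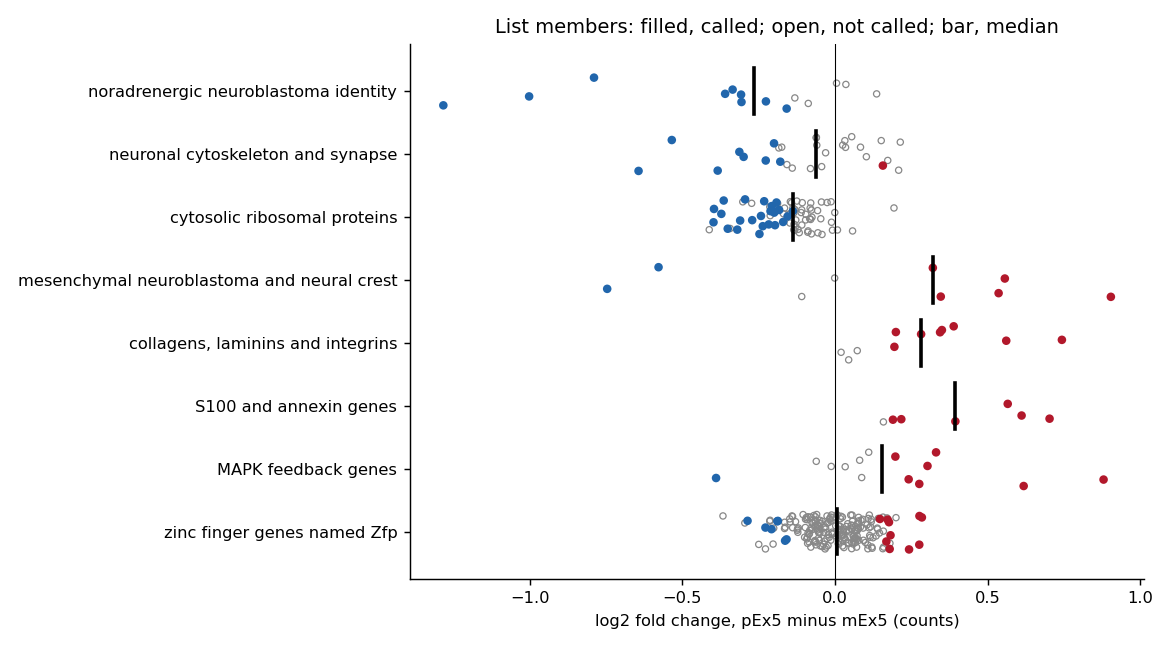
Log2 fold change of pEx5 over mEx5 (horizontal) for the members of 8 gene lists in the count table; filled points are called genes, open points are not called, and the black bar is the list's median. Noradrenergic genes lie mostly left of 0 (median -0.27) and matrix and annexin genes right of it (0.28 and 0.39), while Zfp genes centre on 0 (0.01).

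Feedback genes of the MAPK pathway, which are induced by ERK signalling and restrain it, were higher in 7 of 14 and lower in 1, where 9.79% of all genes were higher and 8.8% lower, with a median of 0.15. Without the replicate number 3 were higher and 1 lower. Phlda1 and the phosphatases Dusp4 (0.62) and Dusp6 (0.33) were higher, and the inhibitor Spry2 (-0.39) and, in RPKM, the ETS factor Etv1 (-0.64) were lower. Of 29 cytoskeletal and synaptic genes of neurons, 8 were lower and 1 higher, 31% against 18.6% of all genes, and the median was -0.06. Syn2, the growth-cone protein Gap43 (-0.53), Celf3 (-0.38) and complexin 2, Cplx2 (-0.31), were the lowest. The median of that list was 0.02 with control siRNA and -0.14 with Chtop siRNA. Of 13 neuropeptide and secretory granule genes 4 were higher and 1 lower, 38.5% called, with Scg2, Resp18 (0.41) and Vgf (0.34) higher and Cartpt (-0.25) lower. Cartpt lost its call in 19 of 37 alternatives, and without the replicate number 2 of the 13 were higher and none lower. Glutathione and NRF2 genes were higher in 5 of 12 and lower in none, 41.7% called, led by Gstm1 (0.43) and Srxn1 (0.39), with a median of 0.05. Of 12 further members tested in RPKM, none was called.

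Receptors of neurotransmitters showed some of the largest differences outside the count table. Chrna3, a subunit of the nicotinic acetylcholine receptor of autonomic ganglia, was at 13.4 and 15.8 RPKM in total lysate of control mEx5 cultures and at 3.62 and 3.66 in those of pEx5. With Chtop siRNA the values were 12.3 and 17.2 against 3.69 and 3.95 RPKM. The nuclear values were 6.18 and 7.22 against 1.44 and 1.60 RPKM with control siRNA and 8.33 and 9.28 against 1.83 and 2.00 with Chtop siRNA. No pEx5 library reached the lowest mEx5 library, and the log2 difference was -2.02 (SE 0.08, adjusted p = 9.43e-09). Htr3a, a serotonin-gated channel, ran from 3.17 to 11.9 RPKM in mEx5 and from 0.84 to 3.21 in pEx5 (log2 -1.89, SE 0.11, adjusted p = 4.84e-07). The dopamine receptor Drd1 (1.12), by contrast, was higher in pEx5, as were P2rx3 (0.44) and Grin1 (0.33) in the count table. The other genes among the 8 lowest were the germline RNA-binding protein Dazl (-2.24, from 0.62 to 2.46 RPKM against 0.09 to 0.34), the secreted synaptic protein Lgi1 (-2.13), prominin 1, Prom1 (-1.96), Tmem56 (-1.93), the locus CT033755.1 (-2.26) and Pyy. Prom1 and Tmem56 did not overlap between lines, and CT033755.1 did. A gene was tested in RPKM where 8 of the 16 libraries reached 0.5, which Dazl did in mEx5 libraries only.

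Guidance, adhesion and signalling genes went both ways, and their counts stand beside 18.6% called of all genes in the count table and 7.57% higher and 4.96% lower in RPKM. Without the replicate number, 4 of 22 axon guidance genes, 1 of 10 adhesion molecules, 4 of 22 Wnt, BMP, TGF-beta and Notch genes, 2 of 22 channels and 1 of 19 AP-1 genes were called. Of 22 axon guidance genes counted, 2 were higher and 4 lower, with the netrin-family receptor Neo1 higher (0.40) and the ligand Slit3 (-0.43), the semaphorin receptor Nrp1 (-0.35) and the netrin receptor Unc5c (-0.25) lower. In RPKM 5 of 16 were higher and 2 lower, Sema3f (1.02) and Slit1 (0.96) being the highest. Of 10 cadherins and neural adhesion molecules 2 were higher, Nectin2 (0.26) and N-cadherin, Cdh2 (0.20), and 3 lower, among them Nectin1 (-0.24) and Ncam1 (-0.20). The call of Cdh2 was lost in 19 of 37 alternatives, with adjusted p up to 0.38. In RPKM Cntnap2 (-1.18), Flrt3 (-0.96) and Flrt1 (-0.78) were lower and Nfasc (0.89) was higher. Of 22 Wnt, BMP, TGF-beta and Notch genes 6 were higher and 1 lower, led by the protease Bmp1 (0.54) and the receptor Fzd7 (0.38), while in RPKM 4 of 22 were higher and 4 lower, with the receptor Bmpr1b (-0.92) and the Wnt effector Lef1 (-0.70) among the latter. Of 22 voltage-gated ion channel genes 5 were higher and 2 lower, with Kcnip3 (0.26), Cacna1g (0.24) and Cacna1b (0.23) higher and Scn3b (-0.29) lower. Of 19 AP-1 and immediate-early genes 4 were higher and 3 lower, with Klf4 (0.35), Fosl2 (0.35) and Ier3 (0.34) higher and Egr1 (-0.32) lower.

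In all, 5347 genes outside the count table were tested on log2(RPKM + 0.1), of which 405 (7.57%) were higher and 265 (4.96%) lower in pEx5, and 52 (0.973%) and 28 (0.524%) at least 2-fold. A gene entered this test where 8 of the 16 libraries reached 0.5 RPKM, so it could pass through the line in which it was high. The number of reads behind these values is unknown, and the fold changes of low genes are understated by the pseudocount.

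The peptide genes Pyy and Ppy are neighbours on chromosome 11, both on the minus strand, 5356 bases apart (mm10; Pyy chr11:102106676-102107832, Ppy chr11:102099930-102101319). Because they moved together, the 250 bases before each gene's start are shown, from RefSeq on GRCm38.p6, at chr11:102107833-102108082 and chr11:102101320-102101569. Capitals mark TATAA, the core letters of a TATA box.
Pyy: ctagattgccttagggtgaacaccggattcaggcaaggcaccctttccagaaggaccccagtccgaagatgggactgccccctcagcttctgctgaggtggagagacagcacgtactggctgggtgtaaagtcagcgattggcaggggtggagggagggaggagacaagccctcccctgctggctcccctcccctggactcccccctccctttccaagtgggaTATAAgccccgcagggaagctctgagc
Ppy: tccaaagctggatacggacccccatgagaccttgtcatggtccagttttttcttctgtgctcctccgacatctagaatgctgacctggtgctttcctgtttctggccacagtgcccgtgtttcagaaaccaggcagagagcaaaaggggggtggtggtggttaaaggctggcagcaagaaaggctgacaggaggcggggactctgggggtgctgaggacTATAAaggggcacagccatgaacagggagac
Each window held TATAA once on the gene's own strand, at position -27 for Pyy and -31 for Ppy counted back from the start. Of 32851 such windows in the RefSeq table, 16% held these letters on the gene's strand and 22.8% on either strand.

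Pyy was at 43.4 and 58.3 RPKM in total lysate of control mEx5 cultures and at 6.22 and 11.8 in those of pEx5. In nuclei of control cultures it was at 19.4 and 30.6 against 3.34 and 4.31 RPKM. With Chtop siRNA the total-lysate values were 1.09 and 3.87 in mEx5 and 0.00 and 0.89 in pEx5, and the nuclear values 1.41 and 3.55 against 0.90 and 0.96. In each combination both pEx5 libraries were below both mEx5 libraries. The log2 difference between lines was -2.29 (SE 0.43, adjusted p = 0.00312). In control cultures alone it was -2.59 (adjusted p = 0.00128), and in Chtop siRNA cultures alone -1.99 (adjusted p = 0.159); the interaction of line and siRNA was not called (adjusted p = 0.889). The Chtop siRNA term was -3.66 on the same scale.

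Ppy was at 27.1 and 36.4 RPKM in total lysate of control mEx5 cultures and at 3.45 and 7.17 in those of pEx5, and in nuclei at 13.2 and 19.6 against 2.91 and 4.17. With Chtop siRNA it was at 1.45 and 1.79 against 0.42 and 0.63 RPKM in total lysate. In nuclei with Chtop siRNA it was listed at 0 in 1 library of each line and at 2.06 and 0.76 in the other, so the lines overlapped there. The log2 difference over the 16 libraries was -1.74 (SE 0.47, adjusted p = 0.0258), and -2.40 in control cultures alone (adjusted p = 0.00291). The call was lost in 10 of 20 alternatives, with adjusted p up to 0.226, while Pyy kept its call in all 20. Mpp2, the gene next to Ppy, was not called (-0.04, adjusted p = 0.795). Among the genes that process such peptides, carboxypeptidase E, Cpe (-0.24), and the amidating enzyme Pam (-0.16) were lower, and the peptidase Dpp4 (0.34, in RPKM) was higher. Pam lost its call in 20 of 37 alternatives and Cpe in 7, with adjusted p up to 0.421 and 0.269, and neither was called without the replicate number.

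**Figure D4:**
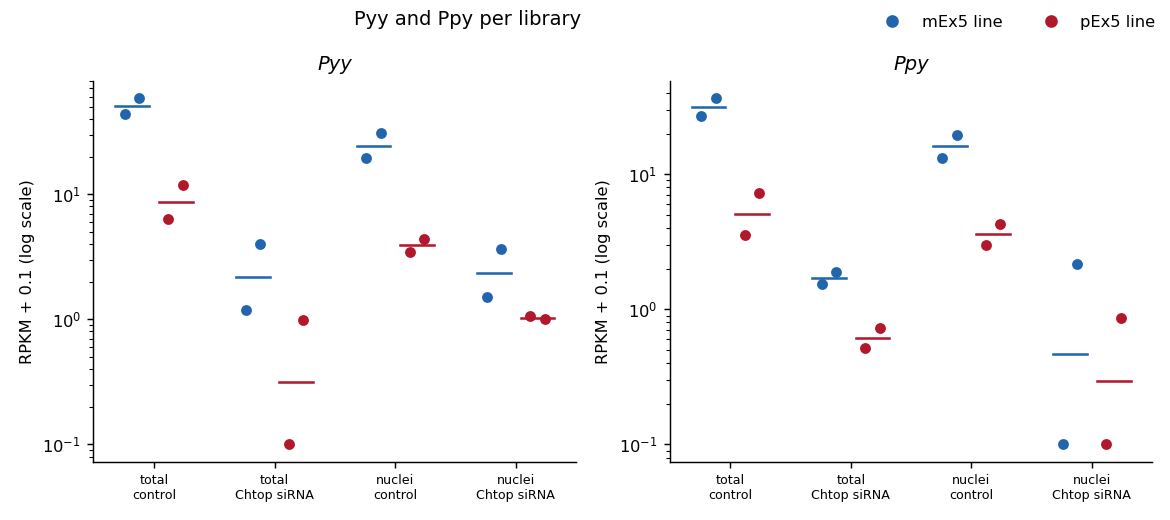
Pyy (left) and Ppy (right) in each library as RPKM + 0.1 on a log scale, in the 4 combinations of fraction and siRNA; blue, mEx5; red, pEx5; lines are geometric means of 2 cultures, and a point at 0.1 is a library listed at 0. In control cultures every pEx5 library is below every mEx5 library of its fraction for both genes.

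Cell cycle and zinc finger genes were called no more often than all genes were. Of 205 Zfp zinc finger genes, 10 were higher and 7 lower, 8.29% against 18.6% of all genes. Of 25 mitosis genes 1 was higher and 3 lower, the latter led by the survivin gene Birc5 (-0.34), and of 30 S-phase genes 5 were lower, led by the thymidine kinase Tk1 (-0.32), or 16% and 16.7% called. The S-phase calls were all in 1 direction, where 8.8% of all genes were lower, and 4 of the 30 had a value above 0 (median -0.09). With doxycycline 0 of the 30 were called. Cytosolic ribosomal protein genes were lower in 24 of 77 and higher in none, 31.2% called, with a median of -0.14, and Rpl39 (-0.40), Rpl41 (-0.40), Rpl34 (-0.37) and Rplp1 (-0.36) led. Without the replicate number in the fit 2 of the 77 were called, and in cytoplasmic libraries none. Rpl39 lost its call in 23 of 37 alternatives, with adjusted p up to 0.547. Ribosomal protein genes have many processed copies, among which the assignment of reads is uncertain. The 15 mitochondrially encoded transcripts all had a value below 0 (median -0.22), and none was called by edgeR in the 16 libraries. Their median was -0.29 with doxycycline but 0.06 in cytoplasm. Of 30 genes of TREX and mRNA export, 6 were lower and 1 higher, led by the adaptor Alyref (-0.25); none was called without the replicate number. Hox genes, imprinted genes and clustered protocadherins gave 1 lower of 3, 5 higher and 2 lower of 23, and 1 lower of 2, and without the replicate number 0 of 3, 5 higher and none lower of 23, and 0 of 2. In RPKM, 2 of 24 further protocadherins were higher, Pcdhb9 (0.45) and Pcdhb3 (0.43), and none lower. Among 11 further imprinted genes 1 was higher, Rtl1 (0.68), and none lower, and of 3 further Hox genes none was called. Of all genes tested in RPKM, 7.57% were higher and 4.96% lower.

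Chtop is both the siRNA's target and the inserted gene. In total lysate with control siRNA it was at 138.6 and 138.8 CPM in mEx5 and at 125.0 and 134.8 CPM in pEx5, and with Chtop siRNA at 32.2 and 34.7 against 19.8 and 21.95 CPM. In nuclei it was at 119.1 and 129.3 against 94.9 and 114.6 CPM with control siRNA and at 61.6 and 70.6 against 57.3 and 59.5 CPM with Chtop siRNA. The pEx5 libraries were the lower ones in all 4 combinations, without overlap. Over the 16 libraries the log2 difference was -0.27 (SE 0.23, adjusted p = 0.456). In cultures with Chtop siRNA alone it was -0.43 (SE 0.10, adjusted p = 0.0131), and with control siRNA alone -0.17 (SE 0.06, adjusted p = 0.0490). Counts are per gene and do not separate endogenous from inserted Chtop, and the part of this difference in the others was not tested.

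The line difference was present in each fraction and with each siRNA. Total lysate alone called 827 genes higher (8.96%) and 688 lower (7.45%), and nuclei alone 314 (3.4%) and 310 (3.36%). Control siRNA cultures alone called 904 (9.79%) and 735 (7.96%), and Chtop siRNA cultures alone 981 (10.6%) and 980 (10.6%). A test of the interaction of line and fraction called 5 genes (0.0541%), with 239 at an unadjusted p under 0.05. The ribosomal protein genes Rpl26 and Rps3a1 had log2 differences of opposite sign in the fractions. For Rpl26 it was -0.32 in total lysate and 0.48 in nuclei, and for Rps3a1 -0.37 and 0.65. The pseudogenes Rpl28-ps1 (-0.11 in total lysate, -0.95 in nuclei) and Trmt112-ps2 (-0.05 and -1.01) were lower in pEx5 nuclei. Rpph1, the RNA of RNase P, was higher in pEx5 in total lysate (0.90) and lower in nuclei (-0.70). The interaction of line and siRNA called 1 gene (0.0108%), Gap43, with 1371 at an unadjusted p under 0.05; DESeq2 called 93 higher and 49 lower.

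Libraries that the 16 did not include gave the same measure again. In the 7 cytoplasmic libraries without doxycycline, which come from the same cultures, 151 genes (1.63%) were higher and 50 (0.541%) lower in pEx5. In the 12 libraries with doxycycline, from separate wells with Chtop siRNA in which each line also makes its own cDNA, 406 (4.39%) were higher and 314 (3.4%) lower. Of the 904 genes higher in the 16 libraries, 867 had the same sign in cytoplasm and 890 with doxycycline, with 143 and 317 called. Of the 813 lower genes, 685 and 803 had the same sign, with 50 and 197 called. None was called in the opposite direction in either set. All 40 genes at least 1.5-fold higher and all 17 at least 1.5-fold lower kept their sign in both sets. With doxycycline Lmo1 differed by -1.02, Sparc by 0.91, Enpp3 by 1.39, Pyy by -3.56 (adjusted p = 0.00138) and Ppy by -2.43 (adjusted p = 0.0185). Adm was the exception among the 15 highest, at 0.11 with doxycycline (adjusted p = 0.431), and Cox6a2 among the 15 lowest, at -0.24 (adjusted p = 0.148). Outside the count table, 398 of the 405 higher and 250 of the 265 lower genes kept their sign with doxycycline, and 240 and 101 of them were called there, where 312 (5.84%) and 150 (2.81%) were called in all. Among the 8 lowest of these, CT033755.1 changed sign with doxycycline, at 0.61 (adjusted p = 0.665, limma), and was at -0.57 in cytoplasm (adjusted p = 0.767, limma).

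The small differences were not spread evenly over chromosomes. Of all 9238 genes tested, 8.8% were lower and 9.79% higher in pEx5, and 4323 had a value above 0 (median -0.01). On chromosome 3, 112 of 428 tested genes were lower and 19 higher in pEx5, and 81.1% of all its tested genes had a value below 0 (median log2 -0.11). Chromosome 13 had 67 of 313 lower and 12 higher (median -0.08), and chromosome 19 had 72 of 338 lower and 14 higher (median -0.07). Chromosome 2 went the other way, with 159 of 784 higher and 14 lower and 75.4% above 0 (median 0.08). The medians of all other autosomes and of X lay between -0.04 and 0.02. Medians were also taken in windows of 20 consecutive tested genes, which overlap, so that adjacent windows share genes. All 41 windows of chromosome 3, all 30 of chromosome 13 and all 32 of chromosome 19 had a median below 0. On chromosome 2, 76 of 77 windows had one above 0. Each other nuclear chromosome had windows on both sides of 0. The same chromosomes stood out with doxycycline, where the medians were -0.11, -0.10, -0.06 and 0.07 for chromosomes 3, 13, 19 and 2, and in cytoplasm, where they were -0.07, -0.04, -0.05 and 0.08. A median of -0.11 corresponds to 0.928 of the mEx5 level. These counts carry no test, and gene copy number was not measured.

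**Figure D5:**
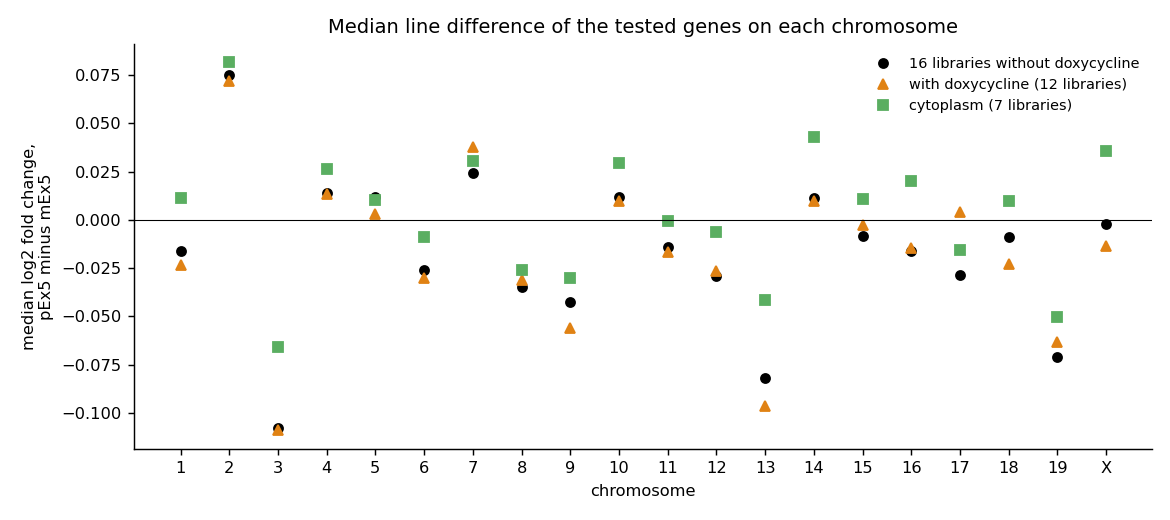
Median log2 fold change of pEx5 over mEx5 (vertical) over the tested genes of each nuclear chromosome (horizontal), for the 16 libraries (black circles), the 12 with doxycycline (orange triangles) and the 7 of cytoplasm (green squares). Chromosomes 3, 13 and 19 are lowest and chromosome 2 highest in all 3 sets.

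The genes next to the named ones were compared by position. Beside the 30 most different genes, 37 adjacent protein-coding genes were in the count table, and 10 were called in the same direction and 1 in the opposite direction, 29.7% against 18.6% of all genes, while 26 were not called. These counts carry no test. Enpp1, next to Enpp3 and of the same enzyme family, was higher (log2 0.67, adjusted p = 6.80e-05). Bves, a Popeye-domain gene like its neighbour Popdc3, was higher by 0.40 (adjusted p = 1.30e-04). P3h4, which lies next to Fkbp10 and also acts on collagen, was higher by 0.55 (adjusted p = 1.46e-05), and the opposite call was Ampd3 beside Adm, which was lower (-0.41, adjusted p = 3.94e-04). Stat3 and Atp6v0a1 on either side of Cavin1, a gene outside these 30, were higher by 0.29 and 0.21. Ric3 beside Lmo1 (0.05, adjusted p = 0.606) was not called. The subunit genes Chrna5 and Chrnb4 on either side of Chrna3 did not reach the RPKM minimum and were not tested.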

How the data were processed

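Poly(A) RNA of total lysate and nuclei was analysed in the 16 libraries without doxycycline. The submitters' processing notes name Salmon (0.14.1), DESeq2 and mm10, with no role or order; other steps are not stated in the labels. The deposited gene counts (9239 genes, whole numbers) were tested with edgeR 4.0.16: TMM scaling, filterByExpr (1 gene removed), robust quasi-likelihood test of line with fraction, siRNA and replicate number as terms, Benjamini-Hochberg adjustment, called under 0.05. Log2 values are pEx5 minus mEx5. The authors' deposited RPKM values were tested for genes outside the count table with limma 3.58.1 (trend) on log2(RPKM + 0.1), with 0.5 RPKM in at least 8 libraries; 1 RPKM column with no sample was left out. Same-numbered cultures of the lines deviated together (r from 0.58 to 0.776 in 4 pairs), so the replicate number was kept as a block. Total and nuclear libraries of a culture share cells; the culture correlation of the residuals was -0.0477. Coordinates and names follow GENCODE M21 (9239 of 9239 matched); the lists, the members and the tests were chosen with earlier results of these data known. Named are Chtop, Pyy and Ppy, the 15 highest and 15 lowest called genes (mean of at least 5 CPM, 1 sign in all combinations), up to 4 called members of each list per table, the 8 highest and 8 lowest outside the count table, and their neighbours; other names were chosen after their values were seen, and some genes that meet the rule are not reported here. The scripts' tests were checked on simulated counts. Alternatives are given in the closing section.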

Additional observations from a re-analysis of the deposited data

Results flagged for a closer look

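The line difference of Gap43, a growth-cone protein, depended on the siRNA by a test of the interaction itself. Its difference in log2 units was -0.64 with Chtop siRNA relative to control siRNA (SE 0.10, adjusted p = 0.0296, edgeR quasi-likelihood test). Within control siRNA cultures the lines differed by -0.22 (adjusted p = 0.0323), and within Chtop siRNA cultures by -0.85 (adjusted p = 1.44e-07). In total lysate with control siRNA it was at 309.0 and 309.7 CPM in mEx5 and 224.2 and 248.5 in pEx5, and with Chtop siRNA at 245.7 and 270.2 against 135.3 and 152.9. In nuclei with control siRNA the lines overlapped, at 126.4 and 133.4 against 122.3 and 130.1 CPM. Chtop siRNA left less Chtop in pEx5 than in mEx5, and the part of this in the difference was not tested. Without the replicate number in the fit no gene was called for this interaction.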

How the results depend on the processing

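No gene named for the line difference changed direction in the alternatives tabulated. The genes called for the interaction of line and fraction were not among those named genes: Rpl26, Rps3a1 and Rpph1 had opposite signs in total lysate and nuclei. The balance of the counts did change. More genes were lower than higher with DESeq2, with DESeq2 size factors in edgeR (860 higher, 878 lower) and without the first control culture of mEx5 (920 higher, 954 lower). The median of the neuronal list was -0.06, and 0.02 with control siRNA alone. The main counts of 904 higher and 813 lower genes became 374 and 214 without the replicate block, that is, without the pairing by replicate number, and 314 and 310 in nuclei alone. DESeq2 gave 990 and 1056, counts summed per culture 994 and 833, with 1238 of the 1717 genes shared, and library totals alone 944 and 686. Leaving out 1 library gave 697 to 967 higher and 551 to 884 lower genes. Leaving out 1 culture gave 481 to 920 and 339 to 954; without the first Chtop siRNA culture of mEx5, 509 genes were lower, and without the second control culture of pEx5, 599 were higher, and without the second Chtop siRNA culture of pEx5, 541 were higher and 372 lower. The interaction of line and fraction, with 2 genes higher and 3 lower in nuclei, gave 0 and 0 without the block, 10 lower with DESeq2 and 1 higher with siRNA within fraction added. The interaction of line and siRNA gave 0 lower without the block and 93 higher and 49 lower with DESeq2. In cytoplasm the block's removal left 22 and 12 genes, and with doxycycline 262 and 180. Outside the count table it left 282 higher and 153 lower, and leaving out 1 library gave 343 to 402 and 198 to 258. The causes were not tested. With 4 cultures of each line, differences near the median standard error of 0.06 (log2) were not detectable, and depth behind RPKM values is unknown.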
